A study of Saccharomyces cerevisiae with 4 samples.

Results

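Small stress proteins and hydrophilins were followed in an slt2 mutant of budding yeast (Saccharomyces cerevisiae) whose cell wall was under enzymatic attack. The group was given as 8 genes by name, HSP12, GRE1, SIP18, RTC3, DDR2, HOR7, DDR48 and STF2, out of 6207 reading frames on the arrays. All 8 were found, DDR2 under its old row name YOL053C-A. The choice asked for values on all 4 arrays, which 7 of the 8 had, and GRE1 had a value on 2. The genes were chosen by family name with their log ratios between treated and untreated cells in view, so these values are given as a description. The fit across all genes includes them, and whether it called them is stated as part of that description, with no p-value.

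Every sample came from the slt2 mutant, which lacks the mitogen-activated protein kinase of the cell wall integrity pathway, grown at 24 °C in the rich medium YEPD. Each culture was divided, and the treated part received 5 units/ml of Zymolyase 100T, a preparation that digests wall glucan, while the untreated part grew on. RNA of both parts, collected at 3 h from 2 cultures, was hybridised to 4 two-colour arrays, with the treated part in Cy3 on arrays 1 and 3 and in Cy5 on arrays 2 and 4. No wild type arrays were analysed here, although the treated channel of array 3 carries a source label reading wild type, against its title and its other channel. Each culture was hybridised in both dye orientations, but which arrays share a culture is not stated. SDs below are over 4 arrays, which come from 2 cultures and are not 4 independent cultures.

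Hydrophilins are small, glycine-rich and strongly hydrophilic proteins that yeast makes when water is scarce, in hyperosmotic medium, during drying or in stationary phase. Several of them protect membranes or enzymes from drying, much as the late embryogenesis abundant proteins of plant seeds do. Their genes, and those of other small stress proteins, are known targets of the general stress transcription factors Msn2 and Msn4 and in part of the osmotic stress kinase Hog1. They are used as reporters of the environmental stress response.

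A value here is the deposited log ratio between the channels of an array, read as log2, with the sign of arrays 2 and 4 turned so that all arrays run the same way. As deposited, all 4 pairs of arrays whose dyes were swapped against each other had a negative correlation across genes, with r from -0.60 to -0.29. After turning, array pairs had an r from 0.29 to 0.60. Neither the labels nor the table name the numerator. If the ratio is Cy3 over Cy5, values above 0 mean higher with zymolyase, and if it is Cy5 over Cy3 they mean lower. Direction is therefore given as a side, and positive values are said to lie on the HSP12 side. SLT2 had a value on 0 of 4 arrays and could not check the labels. The arrays held values for 4931 to 5434 reading frames, and 4788 genes with a value on all 4 arrays were tested.

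All 30 values that the arrays held for the 8 genes lay on the HSP12 side. Over the 7 genes with 4 values the mean log ratios ran from 0.94 (SIP18) to 4.56 (RTC3), with a median of 1.97, or 3.93-fold. Over all tested genes the median of the means was -0.06 and the 99th percentile 1.61. The 7 genes held ranks from 1 to 147 among the 4788 means, and 4 of them were among the 30 largest. In the fit across all genes 7 of 7 were called on this side, where 4.34% of all tested genes were (limma, adjusted p under 0.05). They lay on the HSP12 side on all 4 arrays in 7 of 7 cases, against 11.8% of tested genes. A mean of at least 1 was reached by 6 of 7, against 2.8%. These shares describe the genes and support nothing, since the same contrast was in view when they were picked. Without array 1, 3 of the 7 were called (HSP12, RTC3 and HOR7). Without array 3, whose labels disagree, SIP18 was not called and its mean was 0.82, and the other 6 were called.

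**Figure D1:**
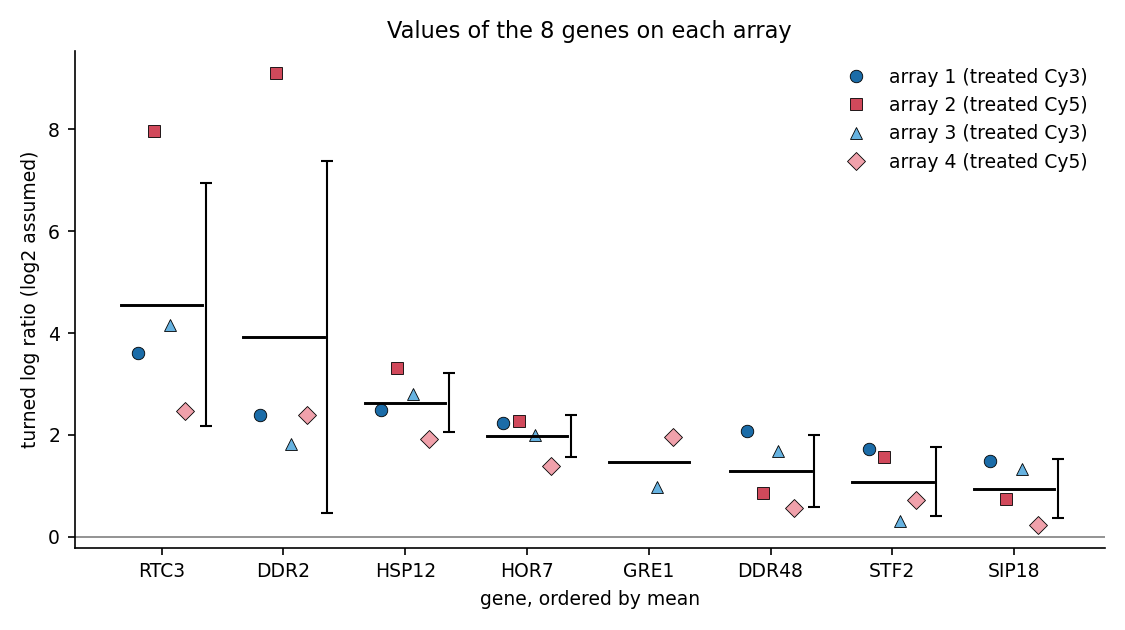
Turned log ratio (log2 assumed) of each of the 8 genes on arrays 1 to 4, ordered by mean; horizontal lines are means and the bars beside them 1 SD over 4 arrays, with no bar for GRE1, which had 2 values. RTC3 and DDR2 stand highest through array 2 (7.97 and 9.10), while HOR7 has the smallest SD, 0.41.

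HSP12 (YFL014W) encodes a small hydrophilic heat shock protein that associates with the plasma membrane and stabilises it under stress. Its log ratios were 2.50, 3.30, 2.80 and 1.91 on arrays 1 to 4. All 4 values lay well above 0, array 2 being the highest and array 4 the lowest. The mean was 2.63 ± 0.58 (SD, n = 4), or 6.18-fold, rank 11 of 4788. Means with any 1 array left out ran from 2.40 to 2.86. The mean of arrays 1 and 3 (2.65) and that of arrays 2 and 4 (2.61) were nearly equal, and 92.0% of tested genes had a larger difference between dye orientations.

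SIP18 (YMR175W) and GRE1 (YPL223C) are paralogues, hydrophilins needed for good survival of drying. SIP18 had 1.49, 0.74, 1.33 and 0.22 on arrays 1 to 4. It was high on the arrays with the treated part in Cy3 and low on those with Cy5. Its mean of 0.94 ± 0.58 (SD, n = 4) was the lowest of the 7, at rank 147, and 1.92-fold. Array 4 alone put it at rank 1549. GRE1 had no value on arrays 1 and 2, and 0.98 and 1.96 on arrays 3 and 4. Only 7 reading frames had values on exactly those arrays. The paralogues were thus compared on 2 arrays, where SIP18 was 0.35 above GRE1 on array 3 and 1.74 below it on array 4. No order between them can be given.

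STF2 (YGR008C), first described as a factor stabilising the inhibited mitochondrial ATP synthase, encodes a hydrophilin with antioxidant activity in dried cells. Its log ratios were 1.72, 1.57, 0.31 and 0.72 on arrays 1 to 4. Arrays 1 and 2 were high and arrays 3 and 4 low, with no overlap. The mean was 1.08 ± 0.68 (SD, n = 4), and it was 1.34 without array 3. STF2 stood at rank 25 on array 1 and at rank 1039 on array 3. Its paralogue TMA10 (YLR327C), whose product associates with ribosomes, had 2.46, 2.35, 1.89 and 1.07. TMA10 was above STF2 on 4 of 4 arrays, by 0.86 ± 0.52 (SD, n = 4).

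DDR2 and HOR7, a paralogous pair, encode very small proteins induced by many stresses, DDR2 named for its response to DNA damage and HOR7 for its response to hyperosmolarity. HOR7 (YMR251W-A) had 2.24, 2.28, 1.99 and 1.39 on arrays 1 to 4. Its mean of 1.97 ± 0.41 (SD, n = 4) carried the smallest SD of the 7 genes, and 23.2% of tested genes had a larger one. DDR2 (YOL053C-A) had 2.40, 9.10, 1.82 and 2.38. It was 0.16 above HOR7 on array 1 and 0.99 above it on array 4, the difference on array 3 being -0.17, and on array 2 it was the largest value of any tested gene. Its mean was 3.92 ± 3.46 (SD, n = 4), against 2.20 without array 2. On array 2 DDR2 exceeded HOR7 by 6.82. Without array 2 the difference was 0.33 ± 0.60 (SD, n = 3), smaller than its spread. On array 2 the values of DDR2 and RTC3 were the only 2 of tested genes beyond 5 in size, while array 3 had 6 such genes, none of them of this group, and arrays 1 and 4 had 0. Channel intensities were not used here, so whether a channel near background made these ratios large was not tested.

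RTC3 (YHR087W) encodes a small protein that shares a domain with the ribosome maturation factor Sdo1 and has been linked to RNA metabolism. Its log ratios were 3.61, 7.97, 4.17 and 2.47 on arrays 1 to 4. It ranked first on array 1, second on array 2 behind DDR2, and among the 17 largest on arrays 3 and 4. The mean of 4.56 ± 2.39 (SD, n = 4) was the largest of all tested genes, and it was 3.42 without array 2.

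DDR48 (YMR173W) encodes a DNA damage-responsive stress protein built of short asparagine- and serine-rich repeats, and at 1293 bases it has the longest coding region of the 8. Its log ratios were 2.08, 0.85, 1.69 and 0.56 on arrays 1 to 4, a mean of 1.29 ± 0.71 (SD, n = 4). Like SIP18, it was high on arrays 1 and 3 and low on arrays 2 and 4. The row YMR173W-A, a dubious reading frame that overlaps DDR48, had 2.03, 1.03, 1.59 and 0.48. Both rows differed by 0.05 to 0.19 in size on each array, a mean absolute difference of 0.10. Spots of overlapping frames cannot be told apart, although both rows stand among the 4788 tested. The split of DDR48 between arrays appeared in both rows, which adds no separate evidence for it.

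**Figure D2:**
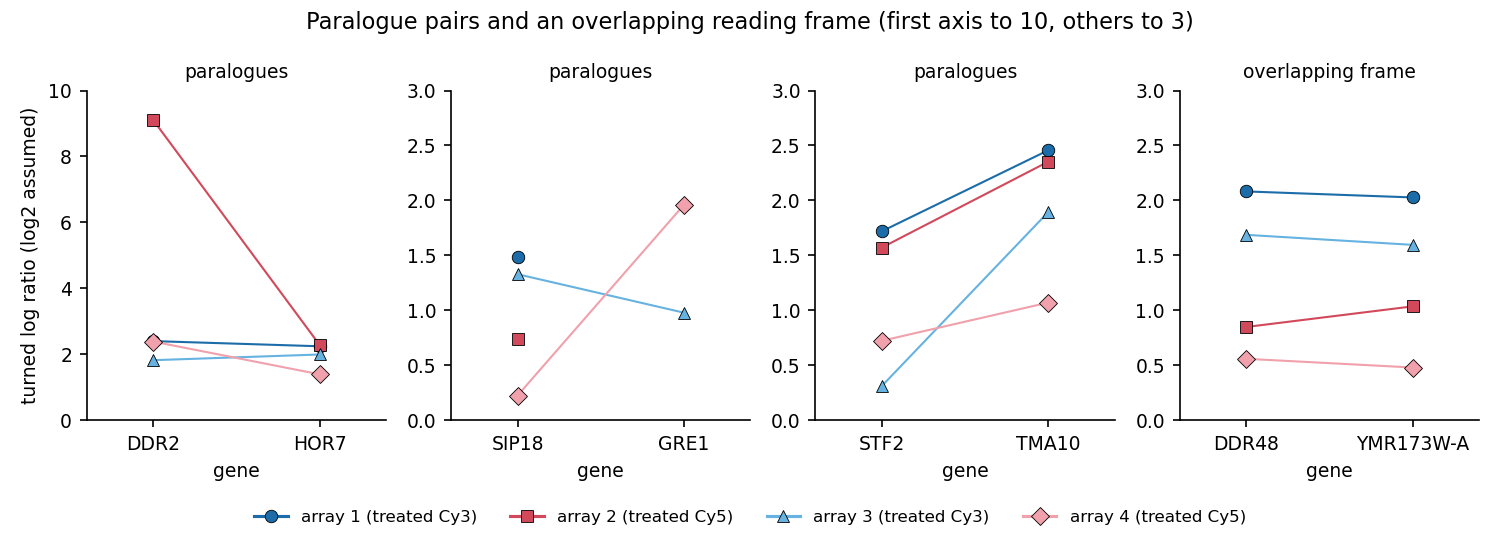
Turned log ratio (log2 assumed) on each array for DDR2 and HOR7, SIP18 and GRE1, STF2 and TMA10, and DDR48 with the overlapping frame YMR173W-A; lines join values of 1 array, and the first axis runs to 10, the others to 3. DDR2 leaves HOR7 far on array 2 alone, TMA10 is above STF2 on all 4 arrays, and the DDR48 rows nearly coincide.

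By mean the order was RTC3, DDR2, HSP12, HOR7, DDR48, STF2 and SIP18. Neighbours in this order mostly did not differ beyond their spread over arrays. RTC3 minus DDR2 was 0.63 ± 1.49 (SD, n = 4), DDR2 minus HSP12 1.30 ± 3.06, DDR48 minus STF2 0.21 ± 0.89 and STF2 minus SIP18 0.14 ± 0.81. HSP12 was above HOR7 on 4 of 4 arrays, by 0.65 ± 0.33, and HOR7 above DDR48 on 4 of 4, by 0.68 ± 0.58. The most alike pair was SIP18 and DDR48, with a mean absolute difference of 0.35 over the 4 arrays, and the least alike SIP18 and RTC3, with 3.61.

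The arrays did not show the group equally. The median of the 7 genes was 2.24, 2.28, 1.82 and 1.39 on arrays 1 to 4. Of the 7, 7, 5, 5 and 3 were among the 100 largest values of tested genes on arrays 1 to 4. The highest value of a gene was on array 1 for 3 genes and on array 2 for 4, and the lowest on array 4 for 5 and on array 3 for 2.

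**Figure D3:**
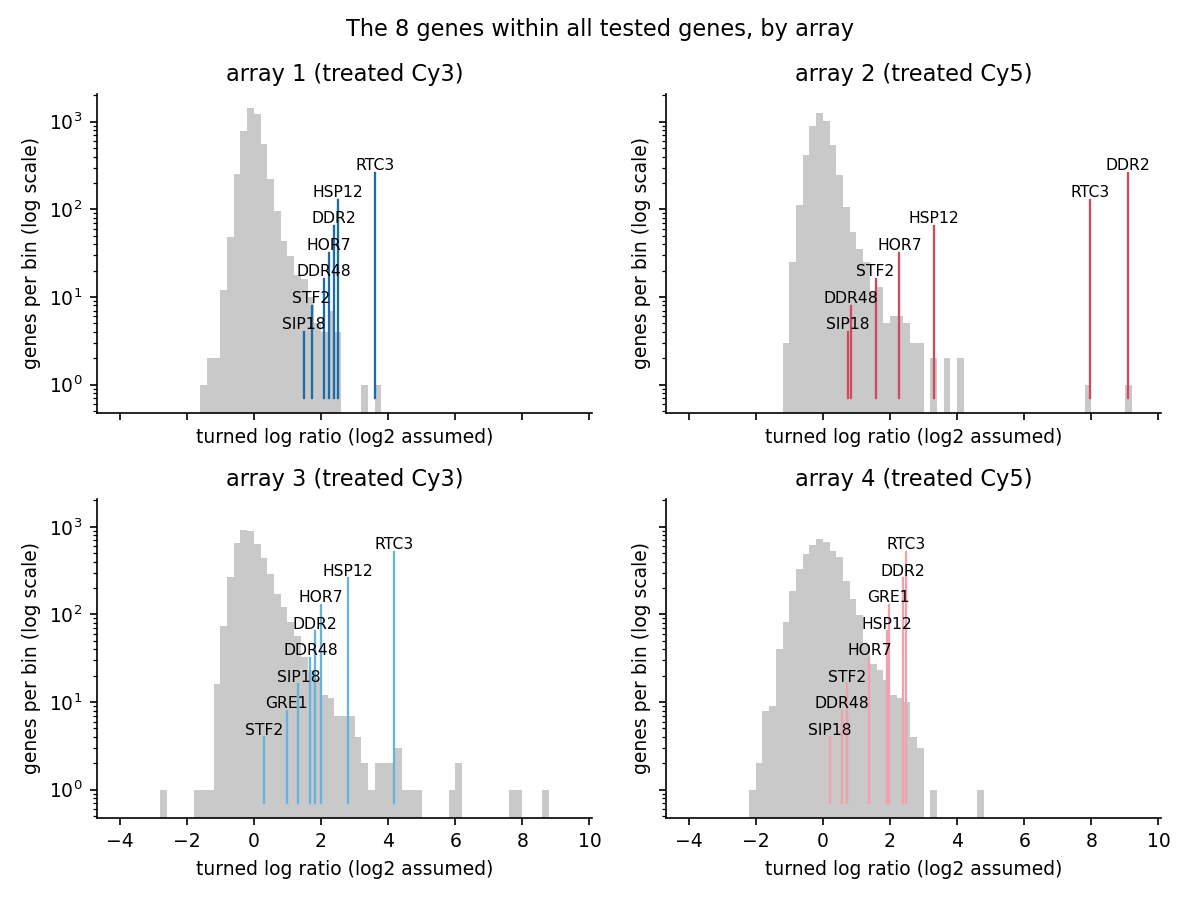
Histograms of the turned log ratio (log2 assumed) of all 4788 tested genes on each array in bins of 0.2, with the number of genes on a log scale; coloured lines mark the 8 genes, GRE1 on arrays 3 and 4 without being part of the histogram. All lines lie above 0, within the upper tail on array 1 and deeper in the bulk for SIP18 and STF2 on arrays 4 and 3.

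Differences between arrays took separate forms in separate genes. For SIP18 and DDR48 the mean of arrays 1 and 3, with the treated part in Cy3, exceeded that of arrays 2 and 4 by 0.93 and 1.18. Only 2.76% and 0.877% of tested genes had a larger difference between dye orientations. For GRE1 the difference ran the other way, 0.98 on array 3 against 1.96 on array 4. For STF2 arrays 1 and 2 exceeded arrays 3 and 4 by 1.13, a size passed by 2.59% of tested genes. HSP12 and HOR7 lay within the bulk in both respects. Since dyes are balanced in the mean over 4 arrays, a difference between orientations enters the SD and not the mean.

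**Figure D4:**
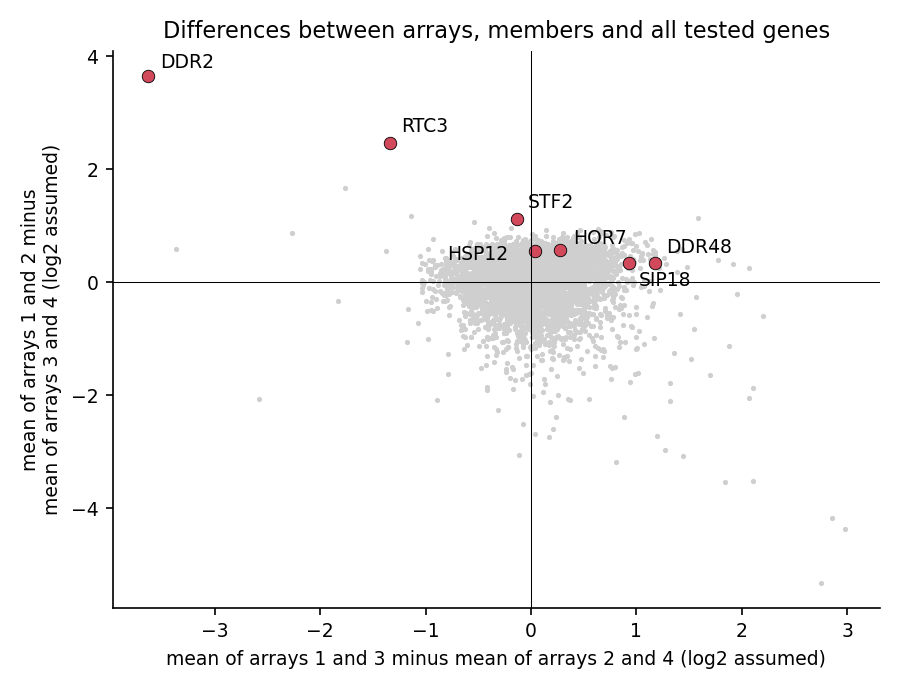
For each tested gene (grey) and 7 of the 8 genes (red), the mean of arrays 1 and 3 minus that of arrays 2 and 4 (horizontal) against the mean of arrays 1 and 2 minus that of arrays 3 and 4 (vertical), both log2 assumed. DDR48 and SIP18 lie to the right, STF2 above the bulk, and DDR2 and RTC3 far to the upper left through array 2.

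Apart from DDR48 the genes are short, with coding lengths from 180 bases (HOR7) to 507 (GRE1), against a median of 1218 over tested genes. Values moved with coding length on arrays 3 and 4, with a Spearman's rho of 0.45 and 0.40 over 4578 genes, against -0.01 and -0.18 on arrays 1 and 2. Tested genes of up to 510 bases, a limit set after the lengths were seen, had medians of -0.26 and -0.38 on arrays 3 and 4 and of 0.02 and -0.04 on arrays 1 and 2. With this trend removed on each array the median of the 7 means was 2.17. STF2 then had 1.65, 1.60, 0.49 and 1.23, and HOR7 2.15, 2.37, 2.17 and 2.01. Array 4 was still the lowest for HSP12 (2.35), HOR7, RTC3 (2.90), SIP18 (0.75) and DDR48 (0.51), and array 3 for STF2 and DDR2 (1.99).

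Most genes next to the 8 on their chromosomes had small values where they were measured. Of 15 neighbouring genes outside the group, 10 had values on all 4 arrays, with means from -0.23 (ECT1, beside STF2) to 0.45 (PAI3) and a median of 0.04. PAI3, encoding an inhibitor of the vacuolar protease A, sits between DDR48 and SIP18 and had a mean of 0.45 ± 0.11 (SD, n = 4), while HOT1, on the other side of DDR48, had 0.02 ± 0.31. IES1 beside HSP12 had 0.15 ± 0.16. AIM39 and SPE2, around DDR2, had 0.14 ± 0.28 and -0.12 ± 0.36. SPE2 had 0.02 on array 2, the array with 9.10 for DDR2. RPF1 beside RTC3 had -0.38 on array 2 and its largest value, 1.50, on array 3. Of the 5 neighbours without 4 values, FMP40, beside GRE1 and named after its values were seen, had 1.59 on array 4, its only value, where GRE1 had 1.96.

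The genes whose values over the 4 arrays came nearest to those of HSP12 were RTN2, MSC1, ALD3, CTT1 and GPD1. Their mean absolute differences from HSP12 were 0.14, 0.17, 0.28, 0.32 and 0.48, where the median over other tested genes was 2.68. Most tested genes had means near 0, so a large mean alone brings a gene nearer than this median. RTN2 encodes a reticulon, ALD3 a cytosolic aldehyde dehydrogenase, CTT1 the cytosolic catalase and GPD1 the glycerol phosphate dehydrogenase of osmotic adaptation. Nearest to the median of the 7 genes on each array were PGM2 (0.10), TMA10 (0.17), DIA1 (0.22), GPD1 (0.30) and PNS1 (0.32), where the median over other tested genes was 1.99. PGM2 is the stress-responsive phosphoglucomutase.

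Related small genes outside the group lay mostly on the same side with smaller values. Of 17 genes listed, 11 had values on all 4 arrays, and 10 of these had a mean on the HSP12 side, with a median of 0.45. Over all tested genes the median of the means was -0.06, and on single arrays 40.7% to 47.8% of them lay on that side. Of the 11, 9 lay on it on all 4 arrays, against 11.8% of tested genes. Called were 3 of 11, all on the HSP12 side, against 4.34% of all tested genes. This list was chosen with earlier results of these data known, so these shares and the p-values below are a description. TMA10 changed by 1.94 ± 0.63 (SD, n = 4; limma adjusted p = 7.79e-07). HSP26, a small heat shock protein chaperone, changed by 1.04 ± 0.49 (limma adjusted p = 0.000814), with 1.19, 1.67, 0.57 and 0.74 on arrays 1 to 4. HSP42, another small chaperone of the alpha-crystallin family, changed by 0.80 ± 0.34 (limma adjusted p = 0.0267). TMA10 kept its call with any 1 array left out, HSP26 lost it without array 1 or 2 (limma adjusted p = 0.107 and 0.0695), and HSP42 without array 1, 2 or 4 (0.210, 0.146 and 0.0840).

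Not all hydrophilic or starvation-induced genes were called. YBR016W and YNL190W, described as a hydrophilin or similar to hydrophilins, had 0.36 ± 0.16 and 0.18 ± 0.13 (SD, n = 4) and were not called. Both lay on the HSP12 side on all 4 arrays. FMP16 and SPI1 had larger means, 0.62 ± 0.07 and 0.60 ± 0.36, also on that side on all 4 arrays, and were not called. In 4 alternatives FMP16 was called, among them separate arrays (limma adjusted p = 0.0285) and a dye term (0.0352). SPI1 and YBR016W were each called in 1. INH1, encoding the inhibitor of the mitochondrial ATP synthase with which STF2 was first studied, had 0.23 ± 0.45. MOH1, a gene of stationary phase, had the lowest mean of the 11, -0.27 ± 0.31. HSP30, a plasma membrane heat shock protein gene named after its values were seen, had -0.23, -0.10 and -0.61 on arrays 1 to 3 and none on array 4. SPG4, a stationary phase gene named after its values were seen, had 2.04, 2.06 and 2.40 on arrays 1, 3 and 4 and none on array 2. It was called when 3 values were enough for a test (limma adjusted p = 1.8e-06).

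Among 12 regulators of these genes, 11 were tested, and 2 were called on the HSP12 side, against 4.34% of all tested genes. The regulators too were listed with earlier results of these data known, so this share and the p-values below are a description. MSN4 changed by 0.76 ± 0.40 (SD, n = 4; limma adjusted p = 0.0423), with 0.50, 0.44, 0.79 and 1.31 on arrays 1 to 4. RIM15, a kinase of nutrient limitation acting upstream of the stress factors, changed by 0.94 ± 0.81 (limma adjusted p = 0.00400), with 0.15 and 0.36 on arrays 1 and 2 and 1.83 and 1.41 on arrays 3 and 4. Coding lengths were 1893 bases for MSN4 and 5313 for RIM15, and values rose with length on arrays 3 and 4. With the length trend removed their means were 0.67 and 0.79. Whether length raised their values was not tested. MSN4 and RIM15 both lost the call without array 1, 2 or 4 (limma adjusted p from 0.118 to 0.265). Without array 3 their means were 0.75 (MSN4, limma adjusted p = 0.0265) and 0.64 (RIM15, 0.0499). RIM15 lost the call in 7 of 13 alternatives, among them separate arrays (0.0868), a dye term (0.101), scaling (0.0712) and removal of the length trend (0.101). MSN4 lost it in 4 of 13, among them a test of genes with 3 or more values (0.0627). These 13 leave out the fold minimum of 2, under which 0 regulators were called. MSN2 had 0.69 ± 0.49 and YAK1, a kinase that antagonises growth signalling, 0.74 ± 0.15, and neither was called (limma adjusted p = 0.0942 and 0.0542). YAK1 was called in 6 alternatives, among them separate arrays (limma adjusted p = 0.0147) and a dye term (0.0220), and MSN2 in 2. For RIM15, MSN4, MSN2 and YAK1 the main p came from pairing arrays 1 with 2 and 3 with 4. In that fit every gene had the same variance. Among the related genes the same held for HSP26, HSP42 and FMP16, while TMA10 took its p from the other pairing. Apart from TMA10, the spread of each of these genes over arrays therefore did not enter its main p. HOG1, PBS2, SKO1, HOT1, GIS1, HSF1 and YAP1 had means from -0.12 to 0.30 and were not called. SKN7 had values on 3 arrays.

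**Figure D5:**
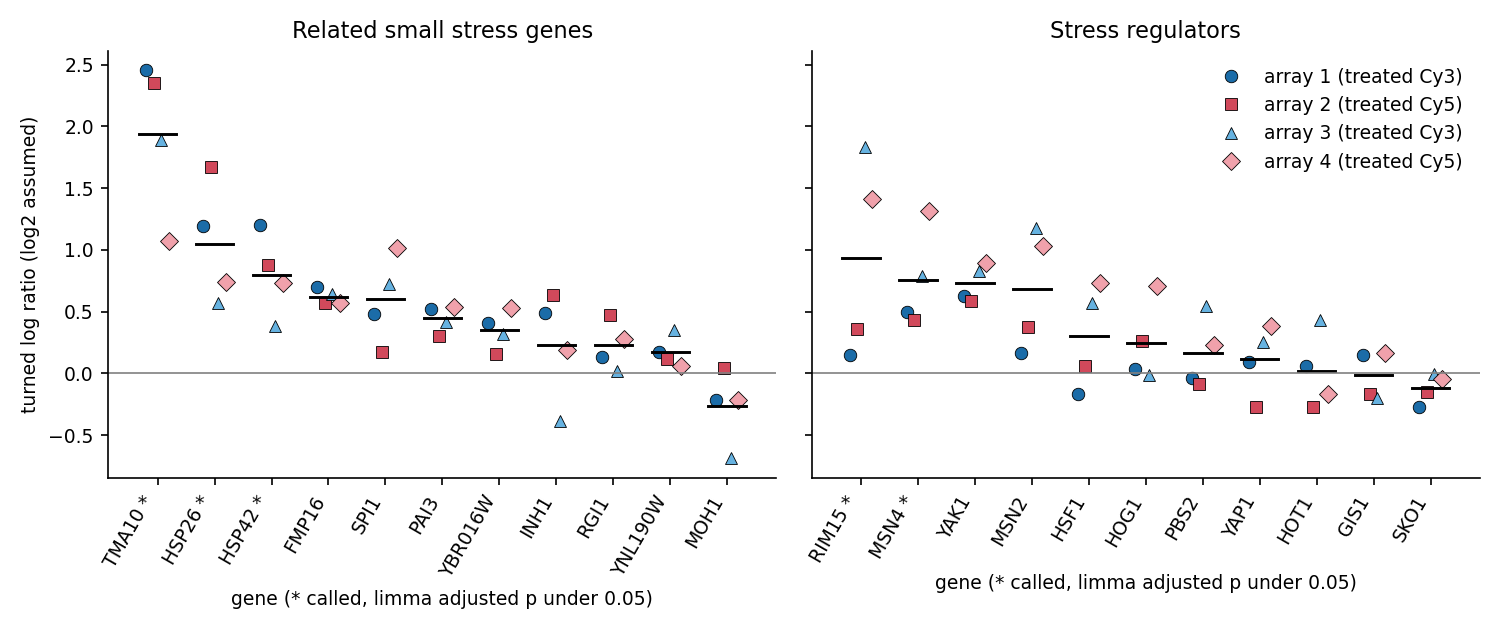
Turned log ratio (log2 assumed) on each array for the 11 related small genes and the 11 regulators with 4 values, ordered by mean (line); a star marks genes called at a limma adjusted p under 0.05. TMA10 stands highest on the left at 1.94, and RIM15 and MSN4 on the right have their higher values on arrays 3 and 4.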

How the data were processed

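The authors deposited log ratios of the 2 channels of each array, read here as log2 by their size, made from RNA labelled directly with Cy3 and Cy5, per the labels' protocols. Base, numerator, centring, scaling, background correction and filter stay unknown, since neither the labels nor the table state them. Deposited medians were -0.02, 0.05, -0.10 and 0.02 on arrays 1 to 4. After 2 control spots were left out, 5677 of 6207 row names matched the RefSeq gene table of assembly R64, 23 through a synonym, and 530 kept their own. Arrays 2 and 4 were turned by dye orientation and nothing was rescaled. Arrays of a culture were averaged and limma 3.58.1 (R 4.3.3; lmFit, eBayes) was fitted for both pairings of arrays with cultures in which each culture has both dye orientations, as the labels describe (1 with 2 and 3 with 4, or 1 with 4 and 2 with 3). For a gene the higher p of both fits was kept and adjusted by Benjamini-Hochberg over 4788 genes. The fit was run on simulated data with 4 independent arrays and no effect of culture. Arrays here share cultures, so the simulation does not show how the fit behaves in that case. With arrays 1 with 2 and 3 with 4 as the cultures, the prior of the moderation had infinite degrees of freedom. Every gene then had the same variance, 0.119, so its p followed the size of its mean and not its own spread. With the other pairing the prior had 10.0 degrees of freedom, and a gene's own spread had some weight. Each fit rests on 2 cultures, which limits the precision.

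The members, lists, tests and named-gene rule (all 8 genes, paralogues, chromosomal neighbours, the 5 nearest genes, and the called, largest and smallest of each list) were chosen with earlier results of these data known. Spots cannot separate overlapping or near-identical genes with certainty. Alternatives covered the pairing, unaveraged arrays, a dye term, centring, scaling, 3 arrays, robust moderation, length trend, fold minimum, medians and leaving out each array. Sequences were not used here.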

Additional observations from a re-analysis of the deposited data

Results flagged for a closer look

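The value of DDR2 on array 2, 9.10, stood far from its other 3 values (1.82 to 2.40): the gap to the next value took 0.920 of the whole range, beyond Dixon's 95% limit for 4 values. Chance alone flags about 1 in 20 genes, and 13 were looked at. RTC3, whose 7.97 lies on the same array, had a gap of 0.692 of its range and did not pass this limit.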

How the results depend on the processing

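The median of the 7 means stayed between 1.87 and 2.17 under centring, scaling, removal of the length trend, medians over arrays and leaving out each array. The mean of DDR2 fell from 3.92 to 2.20 without array 2, and that of RTC3 from 4.56 to 3.42. With 1 array left out the count of members called ran from 3 to 7, that of all genes from 76 to 195, that of related small genes from 1 to 3 and that of regulators from 0 to 2. With arrays 1 and 4, and 2 and 3, taken as the cultures alone, 1415 genes, 7 related genes and 5 regulators were called, while the members' count kept its 7. A fold minimum of 2 left 136 genes and 0 regulators, and 6 members. Regulators called were 1 with genes on at least 3 arrays, 4 with robust moderation and 1 with the length trend removed. With robust moderation 5 members were called, without RTC3 and DDR2, and with 4 unaveraged arrays 6, without DDR2. The cause of these moves was not tested. No paired analysis was possible because the labels give 1 group, and each array already pairs treated with untreated RNA of a culture. Signal over background is unknown, so low signals could not be set apart.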
